A study of Mus musculus with 12 samples.

Results

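The sperm-egg binding and fusion genes described here are 10 genes of the 20718 in the table, chosen by symbol alone: Izumo1, Spaca6, Tmem95, Spam1, Hyal5, Adam1a, Adam1b, Adam2, Adam3 and Clgn. Their RNA was measured in whole mouse testis (strain given as IRC mouse) in 4 groups of 3 libraries each, 12 in all. Males were injected with lentivirus into the testes at 4 weeks of age and kept for 5 weeks, to 9 weeks, before mating. Per the paper, mating lasted 4 days, and samples were taken after a further 4 days. F0_5251KD testes received a mixture of 3 short hairpin RNAs against lncRNA5251, a long non-coding RNA, in the LV3 backbone, and F0_3NC testes received the negative control hairpin in LV3. F0_5251OV testes received full-length lncRNA5251 in the LV5 backbone, and F0_5NC testes received LV5 without the insert. The share of testis cells that carried virus was not measured in these data and no cell type was selected. Nothing in the labels ties each library to its own mouse, so a p-value here speaks only of library-to-library spread, which may be technical. No row of the table is named lncRNA5251, so its own level is not given here. Library totals were 15431383 to 16355720 estimated counts, and all 10 genes passed the filter on low counts that kept 16296 genes.

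A sperm reaches the egg through the hyaluronan-rich matrix of the cumulus cells and the zona pellucida before the plasma membranes meet and fuse. The surface proteins that do this are made in the testis, in meiotic and postmeiotic germ cells, long before they are used. IZUMO1, the ligand of the egg receptor JUNO, acts with the membrane proteins SPACA6 and TMEM95 at fusion. SPAM1 and HYAL5 are hyaluronidases anchored to the sperm surface. ADAM1A, ADAM1B, ADAM2 and ADAM3 belong to the ADAM family of membrane proteins. Both ADAM1 proteins pair with ADAM2, and ADAM1A, ADAM2 and ADAM3 are needed for passage into the oviduct and binding to the zona. Calmegin, the product of Clgn, is the testis chaperone that folds those pairs.

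Adam1a and Adam1b are neighbouring genes, 15168 bases apart on chromosome 5 (GRCm38.p6, RefSeq; Adam1a at chr5:121518604-121521695 and Adam1b at chr5:121500096-121503435, both on the minus strand). A pair of stretches of their coding sequences are shown because they decide how far reads of the pair can be told apart. The sequences are from GENCODE M21 transcripts on GRCm38, run along the coding strand, and have 90 bases each. The first stretch opens the longest identical run of the pair, 1082 bases, and lies at chr5:121520968-121521057 in Adam1a and at chr5:121502816-121502905 in Adam1b.
Adam1a: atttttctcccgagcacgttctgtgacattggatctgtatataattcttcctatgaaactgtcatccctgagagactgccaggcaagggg
Adam1b: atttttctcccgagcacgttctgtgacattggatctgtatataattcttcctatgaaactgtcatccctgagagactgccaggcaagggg
The second stretch is the one with the most differences, 41 of 90 bases, which stand in capitals, at chr5:121519669-121519758 in Adam1a and at chr5:121501517-121501606 in Adam1b.
Adam1a: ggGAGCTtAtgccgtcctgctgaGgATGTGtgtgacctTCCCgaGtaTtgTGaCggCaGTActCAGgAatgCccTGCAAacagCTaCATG
Adam1b: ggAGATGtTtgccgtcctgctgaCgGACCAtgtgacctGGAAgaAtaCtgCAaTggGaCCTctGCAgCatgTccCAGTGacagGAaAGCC

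Over the whole coding sequence, Adam1a and Adam1b were 81.6% identical over 2266 aligned bases. Of the 3289 windows of 50 bases in the Adam1b transcript, 1066 (32.4%) also occurred in Adam1a. Of the 3447 windows of Adam1a, 1066 occurred in Adam1b and 722 in the gene model Gm42878. The other 8 genes shared no window of 50 bases with any other GENCODE gene. Spam1 and Hyal5, which lie 56888 bases apart on chromosome 6, were 69.5% identical over 1538 aligned coding bases with a longest identical run of 31 bases, and Adam2 and Adam3 were 60.0% identical over 2148.

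The counts carried the same picture. Neither Adam1a nor Adam1b had a whole count in any of the 12 libraries, whereas their sum was whole in all 12 (tolerance 1e-06) and the other 8 genes had whole counts throughout. The sum was lowest, 6564, in F0_5NC replicate 1 and highest, 7960, in F0_5251OV replicate 1. Adam1a took 64.1% to 64.6% of the sum in F0_3NC, 63.7% to 64.9% in F0_5251KD, 62.5% to 64.8% in F0_5NC and 61.2% to 64.1% in F0_5251OV. The lowest share was in F0_5251OV replicate 1, and the ranges of F0_5251OV and F0_5NC overlapped. The values of the separate genes depend on how shared reads were divided, so the sum is given beside them.

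**Figure D1:**
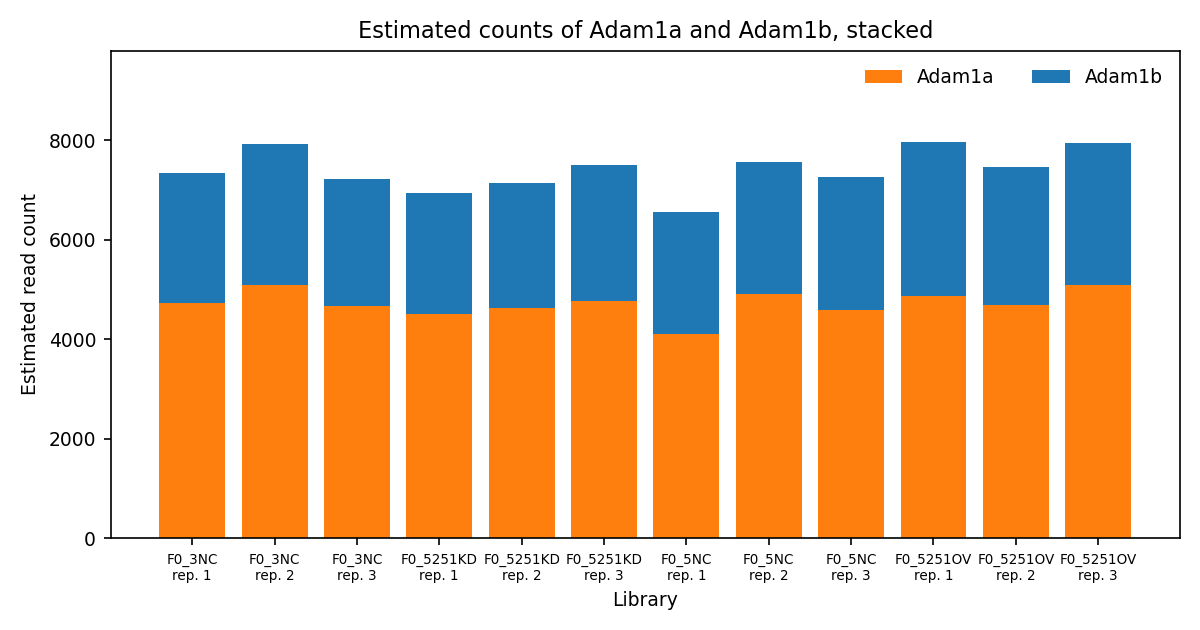
Estimated read counts (vertical axis, from 0) of Adam1a (lower part of each bar) and Adam1b (upper part) in the 12 libraries (horizontal axis, 3 per group). The stacked sums run from 6564 in F0_5NC replicate 1 to 7960 in F0_5251OV replicate 1, and Adam1a makes up 61.2% to 64.9% of each bar.

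Levels were compared between genes as FPKM, which divides by transcript length. Adam3 was the most abundant of the 10, at a mean of 492.5 FPKM over the 12 libraries (434 to 556), above 99.4% of the genes in the table. Clgn followed at 206 FPKM, Adam2 at 167 FPKM and Adam1a at 102 FPKM. Hyal5, Adam1b and Izumo1 lay close together at 69.3, 62.2 and 57.4 FPKM. Spam1 had 40.4 FPKM and Spaca6 29.2 FPKM. Tmem95 was lowest at 10.8 FPKM (7.28 to 14.1), with 75 to 135 reads per library, and still stood above 69.6% of genes.

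The order Adam3, Clgn, Adam2, Adam1a, Hyal5 held in 12 of 12 libraries at each step, as did Izumo1 over Spam1, Spam1 over Spaca6 and Spaca6 over Tmem95. Hyal5 exceeded Adam1b in 9 of 12 libraries and Adam1b exceeded Izumo1 in 9 of 12, so those neighbours did not differ beyond their spread. The ranges over libraries also overlapped between Clgn and Adam2 (193 FPKM at the lowest against 196 FPKM at the highest) and between Izumo1 and Spam1. Adam1a and Hyal5 were parted by little (89.4 FPKM at the lowest against 89.1 FPKM at the highest). The fusion genes Spaca6 and Tmem95 were thus the lowest of the set, and Adam3, Clgn, Adam2 and Adam1a were the highest, while Adam1b ranked below Hyal5. The lengths implied by FPKM and counts differed by 17.8% between libraries for Spaca6 and by 18.9% for Tmem95, against at most 2.17% for the other 8, so the FPKM of these 2 can rank libraries differently from their counts.

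**Figure D2:**
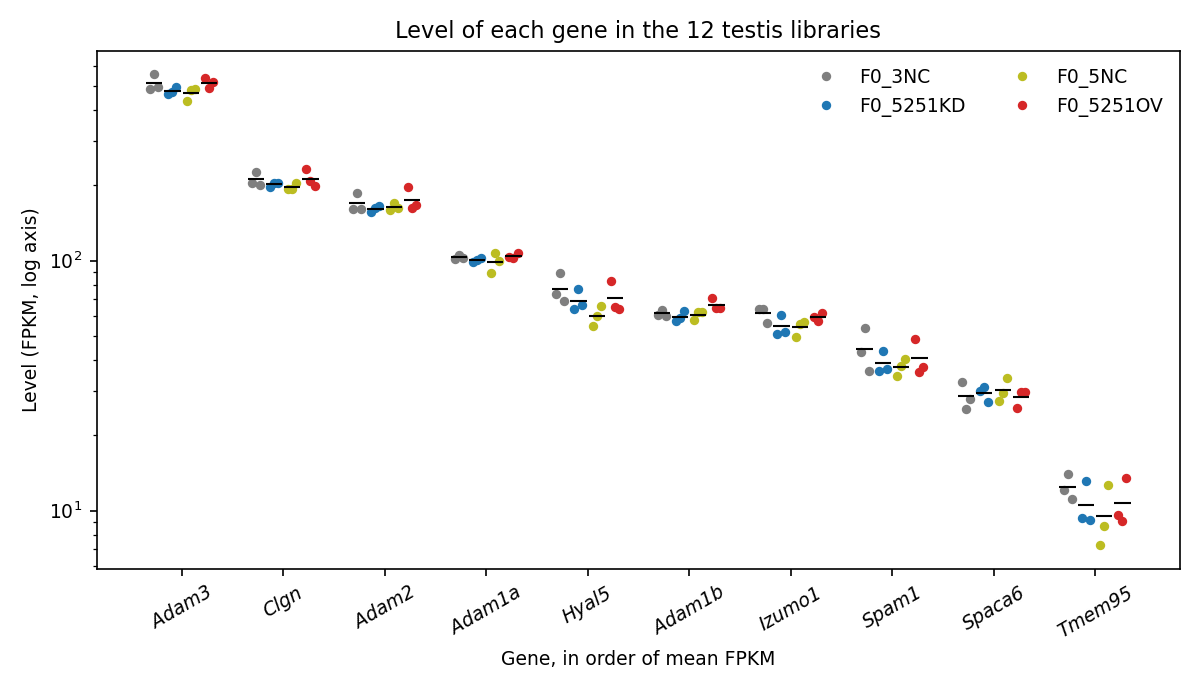
Level of each gene in FPKM (vertical axis, logarithmic) for the 10 genes in order of their mean (horizontal axis). Each point is a library, coloured by group, and each short line is a group mean of 3 libraries. Adam3 lies at 434 to 556 FPKM and Tmem95 at 7.28 to 14.1 FPKM.

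Within a gene, libraries were compared as CPM, counts scaled to a common total after TMM adjustment of the library sizes. F0_5NC replicate 1 stood apart before any group was compared. It had the lowest CPM of 9 of the 10 genes, none of the 10 was above its own mean there, and the median deviation from the gene's mean was -0.29 (log2). On the deposited FPKM scale, which does not use TMM scaling, the same library was lowest for 6 of 10. Its TMM factor, 1.078, was the highest of the 12 (lowest 0.970). The highest CPM of Spam1, Hyal5 and Adam3 were in F0_3NC replicate 2 (median deviation 0.14 over the 10), and those of Adam1b, Adam2 and Clgn in F0_5251OV replicate 1 (0.15).

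Markers of other cells moved with these libraries. Summed over 12 Sertoli cell markers, all of them detected, the level was 1549 CPM in F0_5NC replicate 1 and 789 to 1117 CPM in the other 11 libraries, lowest in F0_3NC replicate 2. By group, the Sertoli sum was 789 to 1085 CPM in F0_3NC, 997 to 1117 CPM in F0_5251KD, 1066 to 1549 CPM in F0_5NC and 827 to 1042 CPM in F0_5251OV. The sum over 8 Leydig cell markers was also highest in F0_5NC replicate 1 (3088 CPM, against 1467 to 3083 CPM elsewhere), and the sum over 12 spermatocyte markers was lowest there (5388 CPM, against 5686 to 6319 CPM). Spermatid markers were lowest in the same 3 libraries. The sum over 12 round spermatid markers was 2373 CPM in F0_3NC replicate 2, 2450 CPM in F0_5NC replicate 1 and 2505 CPM in F0_5251OV replicate 1, against 2742 to 3112 CPM in the other 9. The sum over 11 elongated spermatid markers was 23798, 23237 and 24952 CPM in these 3 libraries, against 26416 to 30088 CPM. Of the 3 libraries, 2 held the highest values of 6 of the 10 genes and the third the lowest of 9. Abundant genes weigh most in such sums. In F0_5NC replicate 1, Clu alone gave 1039 CPM of the Sertoli sum and Insl3 1509.5 CPM of the Leydig sum. All Sertoli markers but Rhox5 were highest in that library. Of the Leydig markers, Cyp17a1, Insl3, Hsd17b3 and Nr5a1 were highest there, and Star, Cyp11a1, Hsd3b1 and Lhcgr were not. The part of these markers in the results was not tested. In whole testis, fewer germ cells and less RNA per germ cell cannot be told apart.

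**Figure D3:**
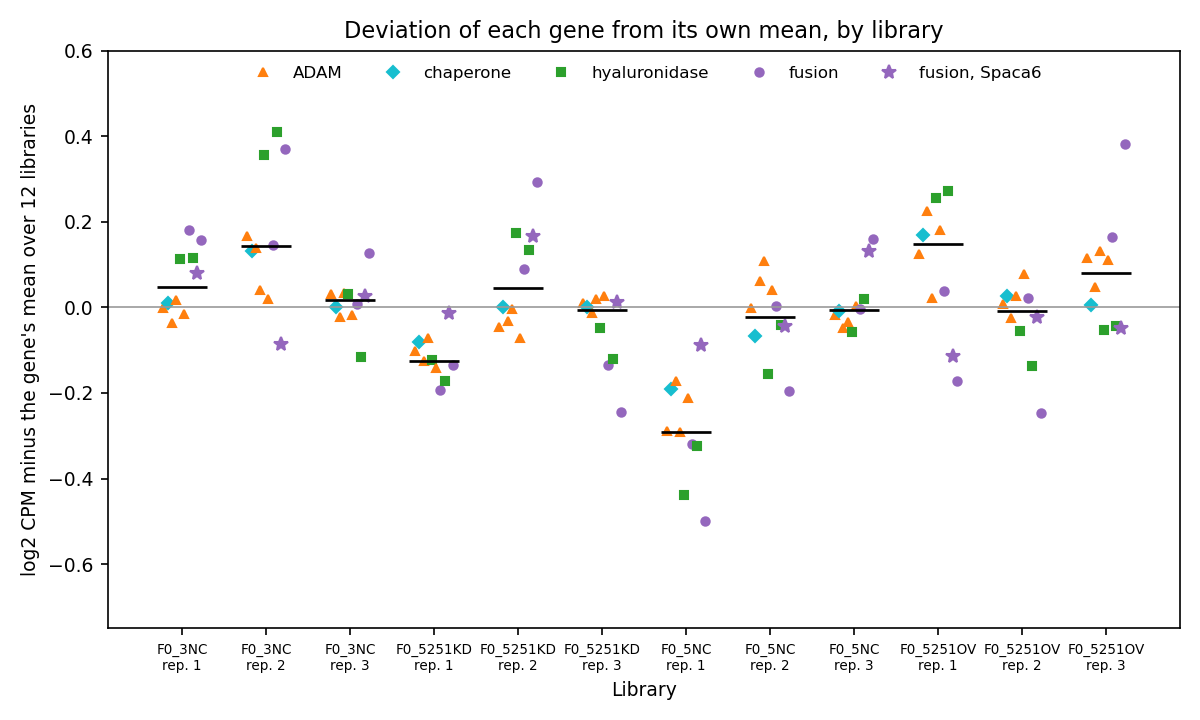
Deviation of each gene's log2 CPM from its own mean over the 12 libraries (vertical axis) in each library (horizontal axis), with 1 point per gene marked by role and a line at the median. In F0_5NC replicate 1 all 10 points lie below 0 (median -0.29), and the star of Spaca6 lies away from the other 9 genes in several libraries.

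The knockdown comparison, F0_5251KD vs F0_3NC, addressed whether hairpins against lncRNA5251 altered these transcripts. No gene of the 10 passed an adjusted p of 0.05 in the edgeR quasi-likelihood test (background: 0.0245% of 16296 genes called), none had an unadjusted p under 0.05 (background 4.74%), and DESeq2 and limma also called none. The log2 difference was below 0 for 9 genes and above 0 for Spaca6 alone (background: 49.1% of all genes above 0), with a median of -0.10 against -0.0045 over all genes. The range was -0.23 for Tmem95 to 0.05 for Spaca6. The 2 groups overlapped in all 10 genes (11.8% of all genes were free of overlap, 5.52% with the knockdown higher and 6.28% with it lower), and adjusted p lay between 0.897 and 0.934.

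The fusion ligand Izumo1 came nearest to the threshold. It had 88.1, 85.9 and 78.1 CPM in the 3 F0_3NC libraries and 68.0, 82.7 and 70.8 CPM in F0_5251KD. Of the knockdown libraries, 2 of 3 were below every control library, and replicate 2 lay among the controls. The log2 difference was -0.19 (SE 0.10, 95% interval -0.41 to 0.03; edgeR adjusted p = 0.897).

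Tmem95, which acts at fusion after IZUMO1 has bound, showed the widest interval. Its values were 7.09, 8.21 and 6.94 CPM in F0_3NC and 5.78, 7.78 and 5.36 CPM in F0_5251KD. The 2 groups overlapped through replicate 2 of the knockdown, and the log2 difference was -0.23 (95% interval -0.69 to 0.22). The gene had 75 to 135 reads per library.

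Spaca6, also needed for fusion, ran the other way. It had 57.2, 51.0 and 55.2 CPM in F0_3NC and 53.6, 60.7 and 54.6 CPM in F0_5251KD, which overlap throughout. The log2 difference of 0.05 (95% interval -0.13 to 0.23) turned to -0.01 without F0_5251KD replicate 2.

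The hyaluronidases that open the cumulus matrix followed each other. Spam1 had 86.0, 105 and 73.2 CPM in F0_3NC against 70.4, 87.1 and 73.0 CPM in F0_5251KD (log2 difference -0.20, 95% interval -0.51 to 0.11). Hyal5 had 144, 170.5 and 136 CPM against 122, 150.2 and 129 CPM (log2 difference -0.17, 95% interval -0.44 to 0.10). In both genes replicate 2 was the highest library of each group, and the groups overlapped. Without F0_3NC replicate 2 the log2 differences were -0.05 for Spam1 and -0.07 for Hyal5.

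The ADAM genes and Clgn were also below 0. Adam3, the ADAM on which zona binding depends, had 1269, 1425 and 1298 CPM in F0_3NC and 1183, 1229 and 1279 CPM in F0_5251KD (log2 difference -0.11, 95% interval -0.30 to 0.08). Adam2, the partner of both ADAM1 proteins, differed by -0.09 (-0.27 to 0.10) and Clgn by -0.07 (-0.24 to 0.09). Adam1a and Adam1b differed by -0.05 and -0.06, and their sum by -0.05 (-0.23 to 0.13). Without F0_3NC replicate 2, Adam3 differed by -0.06, Adam2 by -0.03 and Clgn by -0.03, and the median over the 10 genes was -0.05.

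**Figure D4:**
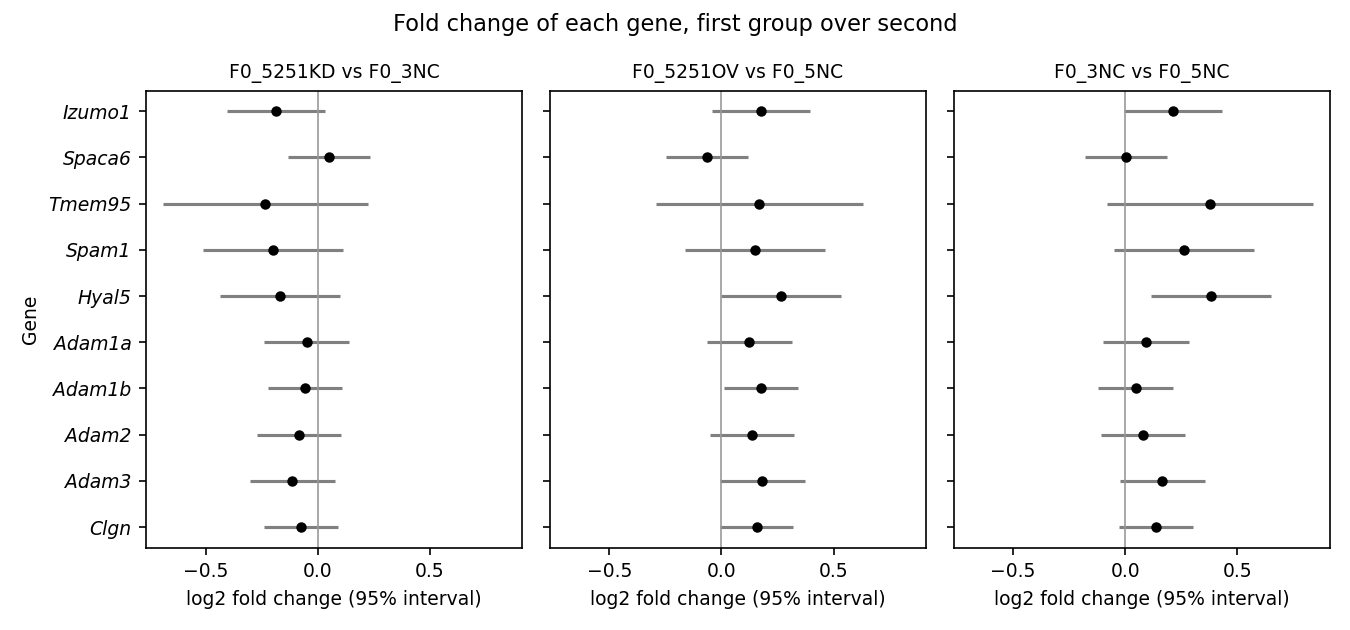
log2 fold change of each gene (horizontal axis, 0 marks equal groups) with its 95% interval from the edgeR fit, in 3 comparisons of 3 libraries against 3. In F0_5251KD vs F0_3NC, 9 of 10 points lie below 0 and all intervals include 0. In F0_5251OV vs F0_5NC, 9 of 10 lie above 0, and in F0_3NC vs F0_5NC all 10 do, Spaca6 by 0.0051 (it falls below 0 with DESeq2 and upper-quartile scaling).

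The overexpression comparison, F0_5251OV vs F0_5NC, addressed whether more lncRNA5251 altered the same transcripts. Again none of the 10 genes passed an adjusted p of 0.05 in edgeR (background: 0% of 16296 genes called), in DESeq2 or in limma. Adam1b alone had an unadjusted p under 0.05 (background 8.77%). The log2 difference was above 0 for 9 genes and below 0 for Spaca6 (background: 49.5% above 0), with a median of 0.16 against -0.0020 over all genes. In 5 genes, Izumo1, Hyal5, Adam1b, Adam3 and Clgn, every F0_5251OV library was above every F0_5NC library (background: 7.33% of all genes), and in none was every one below (6.57%).

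Most somatic markers moved the other way here. The sum over 6 peritubular smooth muscle markers was 122 to 131 CPM in F0_5251OV and 148 to 171 CPM in F0_5NC, and that over 6 endothelial markers was 19.8 to 21.5 CPM against 22.4 to 27.9 CPM, both without overlap. The Sertoli sums given above were also free of overlap, but the Leydig and macrophage sums of these groups overlapped. In the knockdown comparison the endothelial sum was 24.6 to 26.6 CPM in F0_5251KD and 21.0 to 21.2 CPM in F0_3NC, also without overlap. The smooth muscle, Sertoli, Leydig and macrophage sums overlapped there. Among single genes, 13.9% were free of overlap in either direction in the overexpression comparison and 11.8% in the knockdown comparison. The part of somatic cells in the values of the 10 genes was not tested.

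Without F0_5NC replicate 1, the library in which 9 of the genes were lowest, the median was 0.08, still with 9 genes above 0. The groups were then free of overlap in 4 genes (Izumo1, Adam1b, Adam3 and Clgn) against a background of 10.1%. No gene had an unadjusted p under 0.05 in that fit (background 4.14%), and 4 had one in the fit without F0_3NC replicate 2 (background 10.9%), which changes only the shared estimate of spread, the scaling and the filter.

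Adam1b, the partner of ADAM2 on the sperm surface, had 148, 176 and 171 CPM in F0_5NC and 194, 180.5 and 185 CPM in F0_5251OV. The lowest overexpression library was above the highest control library by a narrow margin. The log2 difference was 0.18 (95% interval 0.01 to 0.34; unadjusted p = 0.0400 and adjusted p = 0.558 in edgeR). It was 0.10 (unadjusted p = 0.165) in the edgeR fit without F0_5NC replicate 1.

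Since reads of Adam1a and Adam1b were shared out, the pair was also counted as 1 gene, a choice made after seeing the data. The sum differed by 0.14 (95% interval -0.04 to 0.32; edgeR unadjusted p = 0.109). Adam1a alone, whose protein pairs with ADAM2 inside the testis, had 246, 324 and 294 CPM in F0_5NC and 305, 306 and 329 CPM in F0_5251OV. Its F0_5NC replicate 2 was above 2 of the 3 overexpression libraries, so these groups overlapped. Its log2 difference was 0.12 (95% interval -0.07 to 0.31), and 0.02 without F0_5NC replicate 1.

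Adam3 showed the same split by library. Its values were 1038, 1268 and 1254 CPM in F0_5NC and 1385, 1276 and 1376 CPM in F0_5251OV. All 3 overexpression libraries were higher, the lowest of them by a narrow margin, and the log2 difference was 0.18 (95% interval -0.01 to 0.37). It was 0.09 without F0_5NC replicate 1.

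Clgn, the chaperone, had 629, 685 and 714 CPM in F0_5NC and 808, 731 and 721 CPM in F0_5251OV. The groups did not overlap, and the log2 difference was 0.16 (95% interval -0.01 to 0.32). Adam2, its client, had 365, 429 and 398 CPM against 481, 404 and 425 CPM, which overlap, with a log2 difference of 0.14 (-0.05 to 0.32). Without F0_5251OV replicate 1 the differences were 0.10 for Clgn and 0.06 for Adam2.

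Hyal5 had the largest difference of the comparison, 0.27 (95% interval -0.0025 to 0.53; edgeR adjusted p = 0.570). It stood at 98.2, 119.5 and 128 CPM in F0_5NC and at 159, 128 and 128 CPM in F0_5251OV. A single overexpression library, replicate 1, was far above the controls, and the other two exceeded the highest control by under 1 CPM. Without F0_5251OV replicate 1 the difference was 0.16.

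Spam1, the other hyaluronidase, had 63.4, 77.04 and 80.3 CPM in F0_5NC and 95.8, 72.1 and 76.96 CPM in F0_5251OV. Only replicate 1 of the overexpression group was above all controls. The difference of 0.15 (95% interval -0.16 to 0.46) was 0.02 without that library.

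Among the fusion genes, Izumo1 had 62.3, 77.9 and 77.5 CPM in F0_5NC and 79.8, 78.8 and 87.0 CPM in F0_5251OV. The groups were apart by less than 1 CPM, and the log2 difference was 0.17 (95% interval -0.04 to 0.39). Without F0_5NC replicate 1 it was 0.07.

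Tmem95 had 4.49, 5.55 and 7.10 CPM in F0_5NC and 5.64, 5.35 and 8.27 CPM in F0_5251OV. In both groups replicate 3 was the highest, the groups overlapped, and the difference of 0.17 (95% interval -0.29 to 0.63) turned to -0.05 without F0_5251OV replicate 3. Spaca6 had 50.9, 52.5 and 59.4 CPM against 50.02, 53.3 and 52.4 CPM. Its difference was -0.06 (95% interval -0.25 to 0.12), and it was 0.01 without F0_5NC replicate 3.

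Whether a gene's knockdown and overexpression effects differed was tested directly, since the pairs of groups share no library. None of the 10 genes passed an adjusted p of 0.05 for the knockdown effect minus the overexpression effect in edgeR (background: 0% of 16296 genes called), DESeq2 or limma. Of the 10, 3 had an unadjusted p under 0.05 (background 11.3%), Izumo1 at -0.36 (95% interval -0.67 to -0.05), Hyal5 at -0.43 (-0.81 to -0.05) and Adam3 at -0.29 (-0.56 to -0.03). Their edgeR adjusted p-values were 0.420, 0.420 and 0.423. The difference was below 0 for 9 genes, all but Spaca6 (0.11), with a median of -0.26 (background: 50.4% of all genes above 0). Without F0_5NC replicate 1 the median was -0.18 and no gene had an unadjusted p under 0.05 (background 7.01%).

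The comparison of the controls, F0_3NC vs F0_5NC, shows how far the 10 genes differed between groups that lacked the lncRNA5251 constructs. It uses the control libraries of both comparisons above, so its values are not independent of them. No gene of the 10 passed in edgeR (background: 0.331% of genes called, 0.276% higher and 0.0552% lower), DESeq2 or limma, and Hyal5 alone had an unadjusted p under 0.05 (background 11.9%). All 10 differences were above 0 (background 50.1%), Spaca6 by 0.0051, and it went below 0 with DESeq2, upper-quartile scaling and limma on FPKM. The median was 0.15 against 0.00049 over all genes. In Izumo1, Hyal5, Adam3 and Clgn every F0_3NC library was above every F0_5NC library (background 9.59%, beside 7.41% lower and 17% in either direction).

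Hyal5 differed most between the controls. Its F0_3NC values of 144, 170.5 and 136 CPM were all above the F0_5NC values of 98.2, 119.5 and 128 CPM. The log2 difference was 0.38 (SE 0.12, 95% interval 0.11 to 0.65), with an unadjusted p of 0.00858 and an adjusted p of 0.305 in edgeR. Without F0_5NC replicate 1 it was 0.28, and without F0_3NC replicate 2 it was 0.29.

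The median over the 10 genes between the controls (0.15) was of the size of the overexpression median (0.16) and larger than the size of the knockdown median (0.10). Without F0_5NC replicate 1 the control median was 0.08, with 7 genes above 0 and with Hyal5 and Clgn free of overlap (background 13.6%). Adam1a, Adam1b and Spaca6 were then below 0, at -0.01, -0.03 and -0.04. The backbone and anything else that set these libraries apart cannot be told apart, since each backbone has its own control group.

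Spaca6 differed from the other 9 genes in how it varied over the libraries. Pearson's r of log2 CPM over the 12 libraries had a median of 0.73 over the 36 pairs of the other 9 genes, all of them positive, and the median was 0.65 after group means were removed. Over the 9 pairs with Spaca6 the median was 0.0043, with 5 positive, and 0.16 within groups, up to 0.60 with Izumo1 and 0.54 with Tmem95. Spam1 and Hyal5, neighbours on chromosome 6, had r = 0.92 (0.97 within groups), and Hyal5 and Clgn had r = 0.91. Adam1a and Adam1b, which share reads, had r = 0.78. These correlations are descriptive, since all points share the library, its scaling and its mixture of cells.

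The 5 genes outside the set that were most like its mean standardised pattern over the 12 libraries, among 11703 genes of at least 5 CPM, were Deup1 (r = 0.98), Efcab9 (0.98), 4933417A18Rik (0.98), Zp3r (0.97) and Adcy10 (0.97). Zp3r encodes an acrosomal protein of the zona binding list, Efcab9 a subunit of the CatSper calcium channel of the sperm tail, and Adcy10 the soluble adenylyl cyclase of sperm. Altogether 144 of the 11703 genes had an r above 0.9, so the pattern was not particular to the set.

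Other genes of the same processes were counted by list. Over all genes, 49.1%, 49.5% and 50.1% were above 0 in the knockdown, overexpression and control comparisons, and 50.4% for the difference of effects. The nearest relatives, 16 further ADAM genes of testis or epididymis, had no gene past the adjusted threshold in any comparison in edgeR. In F0_5251KD vs F0_3NC 0 of 16 were above 0 (median -0.17) and 2 had an unadjusted p under 0.05 (background 4.74%), which became 0 without F0_3NC replicate 2 (median -0.07, background 3.19%) and 3 without F0_5NC replicate 1 (background 5.38%). In F0_5251OV vs F0_5NC 15 of 16 were above 0 (median 0.24) and 5 had an unadjusted p under 0.05 (background 8.77%), which became 1 without F0_5NC replicate 1 (median 0.15, background 4.14%) and 12 without F0_3NC replicate 2 (background 10.9%). Between the controls 15 of 16 were above 0 (median 0.29), and 11 of the 16 had an unadjusted p under 0.05 (background 11.9%), or 8 without F0_5NC replicate 1 (median 0.17, background 6.96%). Adam7 was among the 11 but lay below 0 (-7.27, edgeR unadjusted p = 0.00123). For the difference of effects 0 of 16 were above 0 (median -0.43), and 13 had an unadjusted p under 0.05 (background 11.3%), against 6 without F0_5NC replicate 1 (background 7.01%) and 7 without F0_3NC replicate 2 (background 8.28%).

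Adam21 had the smallest p among these ADAM genes in 3 of the 4 tests. It had 57.5, 58.0 and 52.4 CPM in F0_3NC, 43.1, 48.6 and 46.7 CPM in F0_5251KD, 35.9, 52.3 and 44.8 CPM in F0_5NC and 59.2, 54.8 and 55.3 CPM in F0_5251OV. Knockdown libraries were all below their controls (background: 6.28% of all genes) and overexpression libraries all above theirs (background 7.33%). The log2 difference was -0.28 in the knockdown comparison (edgeR unadjusted p = 0.0296, adjusted p = 0.897). It was 0.35 in the overexpression comparison (edgeR unadjusted p = 0.00880, adjusted p = 0.536). The difference of effects was -0.63 (edgeR unadjusted p = 0.00177, adjusted p = 0.388). Between the controls the smallest p was that of Adam6b (0.35, edgeR unadjusted p = 0.00117, adjusted p = 0.162).

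Adam7, known as an epididymal ADAM, was the exception of the list. It had 0.54, 5.22 and 17.7 CPM in F0_5NC and 10.6, 8.22 and 0.06 CPM in F0_5251OV, against at most 0.07 CPM in any F0_3NC or F0_5251KD library. The epididymal genes Crisp1 and Spink8 also had higher group means in F0_5NC and F0_5251OV than in the other groups. Defb48 did not follow, with at most 2 reads in any library. The sum over 4 measured markers of epididymis, Adam7 included, was 13.7 to 121 CPM in F0_5NC and 2.2 to 81.7 CPM in F0_5251OV. It was 0.84 to 7.40 CPM in F0_3NC and 0.45 to 0.65 CPM in F0_5251KD. Crisp1 alone gave 93.8 CPM of the sum in F0_5NC replicate 2 and 89.9 CPM in replicate 3. The part of epididymal RNA in the values of the 10 genes was not tested.

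The 10 other sperm factors of gamete adhesion and fusion had no gene past the adjusted threshold in edgeR. Their medians were 0.00018 in the knockdown comparison (5 of 10 above 0), 0.14 in the overexpression comparison (9 of 10) and 0.10 between the controls (8 of 10). The smallest p belonged to Izumo2, a relative of Izumo1, in both treatment comparisons (log2 differences -0.10 and 0.20, edgeR unadjusted p = 0.198 and 0.0239) and in the difference of effects (-0.30, unadjusted p = 0.0159). Between the controls it belonged to Eqtn, the acrosomal equatorin (0.25, edgeR unadjusted p = 0.0311).

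The list of ADAM3 maturation factors, chaperones, enzymes and membrane proteins listed for ADAM3 processing or placement, had 13 of 14 genes in the table. None was past the threshold. Medians were -0.07, 0.05 and 0.02 in the knockdown, overexpression and control comparisons, with 4, 8 and 8 of 13 above 0. Pdilt, a testis disulphide isomerase that works with calmegin, had the smallest p in the knockdown comparison (-0.18, edgeR unadjusted p = 0.0882) and between the controls (0.30, unadjusted p = 0.00953, adjusted p = 0.309). Tpst2, a tyrosylprotein sulphotransferase, had the smallest p in the overexpression comparison (-0.38, edgeR unadjusted p = 0.0462). For the difference of effects it was Cmtm2a (-0.31, edgeR unadjusted p = 0.0183).

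Of 10 other zona binding and acrosomal proteins none passed, with medians of -0.04, 0.02 and 0.04 and with 4, 8 and 6 of 10 above 0 in the knockdown, overexpression and control comparisons. The smallest p-values were those of Spaca1 in the knockdown comparison (-0.16, edgeR unadjusted p = 0.132) and in the difference of effects (-0.36, unadjusted p = 0.0237). Zp3r had them in the overexpression comparison (0.21, edgeR unadjusted p = 0.0557) and between the controls (0.24, unadjusted p = 0.0359).

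Of 5 other hyaluronidases 4 could be tested, and none passed, with medians of 0.21, -0.02 and -0.09 in the knockdown, overexpression and control comparisons and 3, 2 and 1 of 4 above 0. Hyal6, the testis relative of Spam1 and Hyal5, was the only abundant one (33.4 FPKM, the others at most 1.64 FPKM). It had 116, 146.5 and 108 CPM in F0_3NC, 91.8, 97.1 and 98.2 CPM in F0_5NC, 97.3, 105 and 119.5 CPM in F0_5251KD and 135, 109 and 110.5 CPM in F0_5251OV. Both F0_3NC and F0_5251OV were above F0_5NC without overlap, by 0.37 (edgeR unadjusted p = 0.00819, adjusted p = 0.305) and 0.30 (unadjusted p = 0.0244). The knockdown and F0_3NC libraries overlapped, with a log2 difference of -0.20 (edgeR unadjusted p = 0.111). The difference of effects was -0.50 (edgeR unadjusted p = 0.00994, adjusted p = 0.403). In the knockdown comparison the smallest p was that of Hyal1 (0.66, edgeR unadjusted p = 0.0474), a lysosomal enzyme with at most 27 reads in a library.

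Of the partners on the egg, the zona genes Zp1, Zp2 and Zp3 and the IZUMO1 receptor gene Izumo1r had at most 8 reads in any testis library and were not tested. The tetraspanin genes Cd9 and Cd81 could be tested and did not pass (medians of 0.08, -0.08 and -0.12). Cd81 had the smaller p in every comparison, with log2 differences of 0.10 for the knockdown, -0.23 for the overexpression, -0.21 between the controls and 0.33 for the difference of effects (edgeR unadjusted p = 0.565, 0.203, 0.226 and 0.195).

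**Figure D5:**
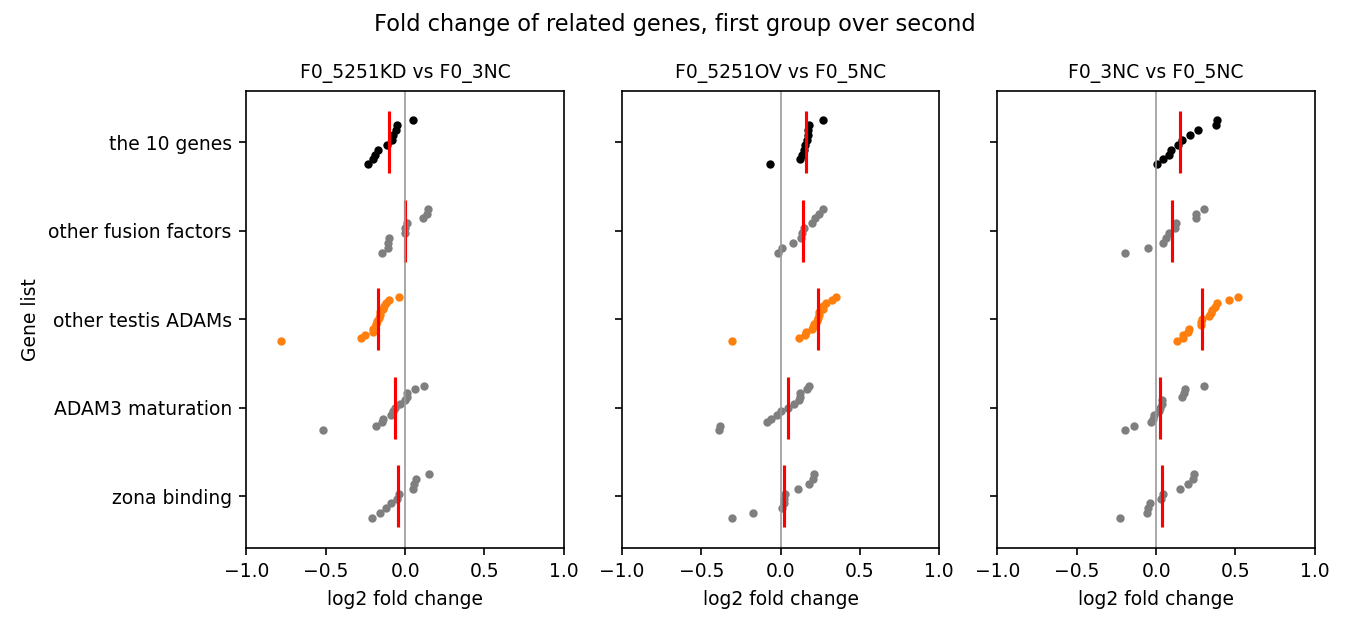
log2 fold change of each tested gene (points, horizontal axis) in 5 gene lists (rows), with the list median as a red line, in 3 comparisons. The 10 genes and the other testis ADAMs lie mostly below 0 in F0_5251KD vs F0_3NC (medians -0.10 and -0.17) and mostly above 0 in the other panels, Spaca6 excepted as in the text, and Adam7 at -7.27 in F0_3NC vs F0_5NC lies outside the axis.

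Promoters are shown for the fusion genes that held a cAMP response element, the site bound by CREM, a transcription factor of spermatids. Of the 10 genes, 7 had a promoter of 300 bases in the RefSeq table (GRCm38.p6), all but Adam2, Adam3 and Clgn. On either strand, the full element TGACGTCA occurred in Izumo1 alone (1.79% of all 32851 promoters hold it), 96 bases before the start. The shorter TGACGT, part of the full element, occurred in Izumo1 and Tmem95 (7.51% of all promoters). Capitals mark the element in a stretch of 120 bases of Izumo1, chr7:45621661-45621780 on the plus strand. They also mark it in 100 bases of Tmem95, chr11:69878206-69878305 on the minus strand, 208 bases before the start. Distances are from the start used for the promoter. For Izumo1 this is the first base of the gene, but for Tmem95 it lies inside the RefSeq gene (chr11:69876054-69878171).
Izumo1: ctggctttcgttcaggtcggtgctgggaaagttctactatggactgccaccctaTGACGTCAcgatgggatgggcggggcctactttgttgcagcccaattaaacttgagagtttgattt
Tmem95: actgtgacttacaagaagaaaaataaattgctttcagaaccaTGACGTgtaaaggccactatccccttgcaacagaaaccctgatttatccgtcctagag

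Other elements searched on both strands are common in promoters. GTTGCC, part of the site of RFX factors, was found in Spaca6 (12.5% of all promoters), AACNGNC, the MYB site, in Adam1b (32.8%), CCAAT in Adam1a and Izumo1 (37.4%) and TATAAA in none of the 7 (13.6%). A match describes the letters of the window and is not a measured site. Izumo1 and Tmem95 had r = 0.80 over the 12 libraries, against 0.23 for Izumo1 and Spaca6 and 0.41 for Tmem95 and Spaca6. Within groups these were 0.80, 0.60 and 0.54. Izumo1 was about as close over the 12 libraries to Adam1a (r = 0.77), Hyal5 (0.75) and Spam1 (0.72), whose promoters held no TGACGT. With Adam3, which had no promoter here, it had r = 0.79. The part of the element in these correlations was not tested.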

How the data were processed

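Testis RNA of 12 libraries in 4 groups of 3 was analysed, grouped by the labels. The authors enriched messenger RNA and aligned reads to reference genes with SOAPaligner. Whether strand was used in counting is not stated. The build is mm10 per the labels. For every gene the authors deposited, in each library, its estimated count and its FPKM (RPKM in the study's methods). Group averages of both in the table were not used. Of the estimated counts, 12% were not whole, and they were rounded here although the design had assumed whole counts. A further 18 columns hold values of libraries outside this series and were left out.

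Tests on counts used edgeR 4.0.16 under R 4.3.3 (filterByExpr, TMM scaling, quasi-likelihood F test, two-sided, 1 fit of 12 libraries, 8 residual degrees of freedom), with Benjamini-Hochberg adjustment over 16296 genes and a threshold of 0.05. Standard errors are the log2 difference over the square root of F. Libraries of one group differed by a chi-square per gene of 3.73 to 20.2, so none was a duplicate. The code was tested on simulated counts. The alternatives were DESeq2 1.42.0, limma 3.58.1 on log2(FPKM + 1) and log2(FPKM + 0.1), scaling by upper quartiles, omitting the filter, requiring 1 CPM in 3 libraries, fits of 2 groups, a replicate block and leaving out each library. Counting Adam1a and Adam1b as 1 gene was added after seeing the data, as were list counts without F0_5NC replicate 1 or F0_3NC replicate 2. DEGseq, the test of the study, ignores replicates and was not run.

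The 10 genes and the 17 lists, theirs included, were chosen with earlier results of these data known. Named beside the 10 genes were, per pathway list and comparison, genes past the threshold or else the one with the smallest unadjusted p, and the 5 genes most like the set in pattern. Genes named outside this rule (Adam7, Hyal6 in groups where it was not the smallest, epididymal markers) were chosen after their values were seen.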

Additional observations from a re-analysis of the deposited data

How the results depend on the processing

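None of the 10 genes was called under any alternative, and the smallest edgeR adjusted p-values over the fits without 1 library were 0.684 (knockdown), 0.385 (overexpression), 0.240 (controls) and 0.329 (difference of effects). The median log2 difference kept its direction in all fits. Leaving out 1 library gave medians of -0.14 to -0.05 in the knockdown comparison, 0.076 to 0.22 in the overexpression comparison, 0.08 to 0.20 between the controls and -0.31 to -0.18 for the difference of effects, with 0 genes of the 10 called each time. Without F0_5NC replicate 1 the overexpression median became 0.076. This move was slightly more than 0.085, the standard error of a difference of group means computed from the spread of the median between libraries of a group.

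Of 318 single-gene values under the other alternatives, 311 kept direction and side. The 7 that reversed were all the log2 fold change of Spaca6 in F0_3NC vs F0_5NC (0.0051), which was -0.00407 with DESeq2, -0.0124 with upper-quartile scaling, -0.00494 without a filter, -0.00858 with the 1 CPM filter, -0.0722 and -0.0745 with limma on log2(FPKM + 1) and log2(FPKM + 0.1), and -0.00812 in the fit of 2 groups. The cause was not tested. Leaving out 1 library reversed 9 of 480 values. Over these fits Spaca6 ran from -0.0111 to 0.0818 (knockdown), -0.110 to 0.0116 (overexpression) and -0.0436 to 0.0792 (controls), Tmem95 from -0.0550 to 0.363 (overexpression), Adam1a from -0.0128 to 0.187 and Adam1b from -0.0320 to 0.0947 (controls).

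Over all genes, calls were 4, 0, 54 and 0 with edgeR (knockdown, overexpression, controls, difference) and 20, 29, 131 and 34 with DESeq2. In the knockdown comparison limma called 2 and 0. Fits of 2 groups and no filter each gave 3 in the overexpression comparison, and limma on log2(FPKM + 1) called 1 for the difference. With the replicate block, calls were 2, 0, 50 and 0 and the medians of the 10 genes -0.10, 0.17, 0.15 and -0.27. Same-numbered libraries had correlations of -0.17 to 0.07 in their deviations, which gave no sign that the numbers pair them. With 3 libraries per group this cannot exclude a pairing.

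Tmem95, with 75 to 135 reads a library, had the least depth of the 10 genes. Intervals and tests cover the spread of these libraries.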

Other observations

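No germ cell marker passed the adjusted threshold in edgeR in any comparison. In the knockdown, overexpression and control comparisons 1, 2 and 4 of 43 had an edgeR unadjusted p under 0.05. These were smaller shares than over all genes (background 4.74%, 8.77% and 11.9%). Among those markers were Kit, the stem cell factor receptor (0.55 in the knockdown comparison), and Lrriq4 (0.31 in the overexpression comparison). Sycp2 of the synaptonemal complex was another (0.30 between the controls). These genes were named after their values were seen. Over all genes, 49.1%, 49.5% and 50.1% were above 0 in the knockdown, overexpression and control comparisons. Of 12 spermatocyte markers, 3 were above 0 in the knockdown comparison (median -0.11), 11 in the overexpression comparison (0.09) and 9 between the controls (0.10). Of 12 round spermatid markers, 6, 10 and 9 were above 0 (medians 0.0023, 0.08 and 0.05), and of 11 elongated spermatid markers 7, 9 and 4 (0.03, 0.04 and -0.03). Of 8 spermatogonial markers, 2, 3 and 3 were above 0 (-0.03, -0.07 and -0.04).

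Somatic markers of the testis lay mostly above 0 in F0_5251KD vs F0_3NC (background: 49.1% of all genes above 0). They lay mostly below 0 in F0_5251OV vs F0_5NC (background: 49.5% above 0), and none passed in edgeR. Between the controls the background was 50.1% above 0. Of 12 Sertoli cell markers, 9 were above 0 in the knockdown comparison (median 0.14), 0 in the overexpression comparison (-0.29) and 0 between the controls (-0.29). For 8 Leydig cell markers the counts were 6, 0 and 3 (0.32, -0.29 and -0.17), for 6 peritubular smooth muscle markers 6, 0 and 2 (0.11, -0.42 and -0.16), for 6 endothelial markers 6, 0 and 0 (0.23, -0.29 and -0.17), and for 6 macrophage markers 4, 1 and 2 (0.10, -0.41 and -0.33). Of 3 tested epididymal markers, 0 were above 0 in any of these comparisons (medians -0.87, -0.82 and -4.70). Spink8 was lower in F0_3NC than in F0_5NC (log2 difference -3.79, edgeR adjusted p = 0.0235), with 0.45 to 1.32 CPM against 3.42 to 16.7 CPM, and was the single marker past the threshold.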
